A study of Mus musculus with 12 samples.

Results

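The 9 genes described here encode enzymes and adaptors that process the DNA lesions of antibody diversification: Ung, Apex1, Msh6, Exo1, Trp53bp1, Xrcc5, Xrcc6, Prkdc and Lig4. They were chosen by name, and every probe set that the platform annotation maps to a single one of these symbols was taken. This gave 19 probe sets for 9 of the 18193 genes that had a probe set of their own: 1 each for Ung, Msh6, Xrcc5, Prkdc and Lig4, 2 for Xrcc6, 3 each for Apex1 and Exo1, and 6 for Trp53bp1.

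In activated B cells the deaminase AID converts cytosine to uracil in the antibody genes, both in the rearranged variable exons and in the switch regions that precede the constant regions. The uracil is either excised by uracil DNA glycosylase and the backbone cut by an abasic site endonuclease, or read as a mismatch and resected. In variable exons error-prone filling of the gap leaves mutations, and in switch regions breaks on both strands are held together and joined by the Ku-dependent end-joining machinery, which exchanges the antibody class. Most of these proteins also serve general DNA repair in every dividing cell, and their transcripts need not report on antibody diversification. The gene of AID itself was not analysed here.

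RNA was measured on 12 Affymetrix mouse genome arrays, 2 for each of 6 groups: Jmjd2a-depleted, Jmjd2c-depleted and control cells at day 3, and the same 3 labels at day 1. All were B220+ spleen cells of C57BL/6 mice with the transgene Tg(IghelMD4)4Ccg (MD4), selected on magnetic beads and cultured with anti-CD40, IL21 and HEL. Every B cell of such mice is meant to carry one transgenic receptor for HEL (hen egg lysozyme), so the cultures model a single receptor of IgM and IgD class. Depletion was directed at the histone demethylases Jmjd2a (Kdm4a) and Jmjd2c (Kdm4c), with shRNA viruses named in the sample sources and siRNA in the protocol. The controls had received the control construct of the same kind. No ages of the mice are given, and the titles call the replicates biological without naming separate cultures or animals, so p-values measure the spread between these arrays, which may be technical. The series asks which genes the demethylases regulate as B cells become plasma cells.

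Levels are the log2 signals deposited by the authors, on which a difference of 1 is a doubling, and levels of different probe sets cannot be set against each other. Differences come from a limma model of all 12 arrays, and a probe set passed the test when its p-value, adjusted by Benjamini and Hochberg over 45037 probe sets, was under 0.05. Where 1 value per gene was needed, the probe set with the highest mean was used. The median of all probe-set means was 5.22, and 5 of the 19 probe sets lay under it. These were Exo1 1430225_at, Xrcc6 1428504_at and Trp53bp1 1446100_at, 1457812_at and 1442316_x_at.

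Several features of the arrays bear on all that follows. Kdm4a and Kdm4c transcripts did not pass the test in any comparison of a depleted label with its control. Their differences lay between -0.22 and 0.24, so groups are called by their labels. The 1 lower at an unadjusted p under 0.05 was Kdm4a with the Jmjd2c label at day 3 (-0.22), which is not the gene that label targets. Kdm4c, the targeted gene, differed there by 0.03. Whether each array holds what its label says was not settled by these values, and every difference below is one between labels. The day 3 controls spread more than the other groups, with a replicate SD pooled over all probe sets of 0.259, against 0.115 to 0.157 in the other groups, and both of their sample descriptions carry the same replicate number. Over all probe sets, correlation of the day 3 Jmjd2a and Jmjd2c arrays was 0.997 and 0.995 with the day 1 controls, but 0.985 and 0.988 with the controls of their own day. B cell markers averaged 9.23 to 9.26 in both day 3 labels, against 9.47 and 9.49 in the day 3 controls, with 2 of 8 lower for each label. At day 1 they averaged 10.75 to 11.10 in both labels, against 9.12 and 9.19 in the controls, with 7 of 8 higher for each label. Macrophage markers averaged 6.18 to 6.40 in the day 3 labels, against 7.46 and 7.51 in the controls, with 7 (Jmjd2a) and 6 (Jmjd2c) of 9 lower. In the day 1 labels they averaged 8.45 to 9.63, against 5.36 and 5.42 in the controls, with 9 of 9 higher for each label. NK cell markers followed the same order, with 3 of 4 lower for each label at day 3, and 3 (Jmjd2a) and 4 (Jmjd2c) of 4 higher at day 1. T cell markers had 1 of 6 lower at day 3 and 3 of 6 higher at day 1 with each label, and erythroid markers 2 of 3 higher at day 1. Neutrophil markers averaged 6.02 and 9.16 in the day 1 Jmjd2a arrays and 6.01 and 10.01 in the Jmjd2c arrays, against 4.88 and 4.95 in the controls. At day 3, 3 of 6 plasma cell markers were lower and 1 higher, and 3 of 5 germinal centre B cell markers higher and 1 lower, with each label. At day 1, 3 of 6 plasma cell markers were higher and 1 lower with each label. Of 5 germinal centre markers 0 passed at day 1, with 1 higher (Jmjd2a) and 1 lower (Jmjd2c) at an unadjusted p under 0.05. Of all genes, 16% (Jmjd2a) and 12.1% (Jmjd2c) passed as higher and 9.04% and 7.21% as lower at day 3. At day 1, 5.72% and 7.57% passed as higher and 4.6% and 7.35% as lower. The 1 of 6 T cell markers is close to these shares in so short a list. The part of these other cells in the results below was not tested. In such mixed RNA, fewer cells of a type and less RNA per cell cannot be told apart.

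At day 3 most of the repair genes were higher in the arrays labelled depleted than in the control arrays. Prkdc was an exception, and the probe sets of Trp53bp1 disagreed, as given below. By the brightest probe set, 7 of 9 genes passed as higher with the Jmjd2a label and 6 of 9 with the Jmjd2c label, and 0 passed as lower, with 0 lower at an unadjusted p under 0.05. Over all 18193 genes, 16% and 12.1% passed as higher in these comparisons, and 9.04% and 7.21% as lower. Over probe sets the counts were 11 and 9 of 19, where 13.7% and 9.28% of all probe sets passed as higher. The median difference of the 9 genes was 0.72 for Jmjd2a and 0.62 for Jmjd2c, where the medians over all genes were -0.05 and -0.01. Both comparisons use the same 2 control arrays.

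**Figure D1:**
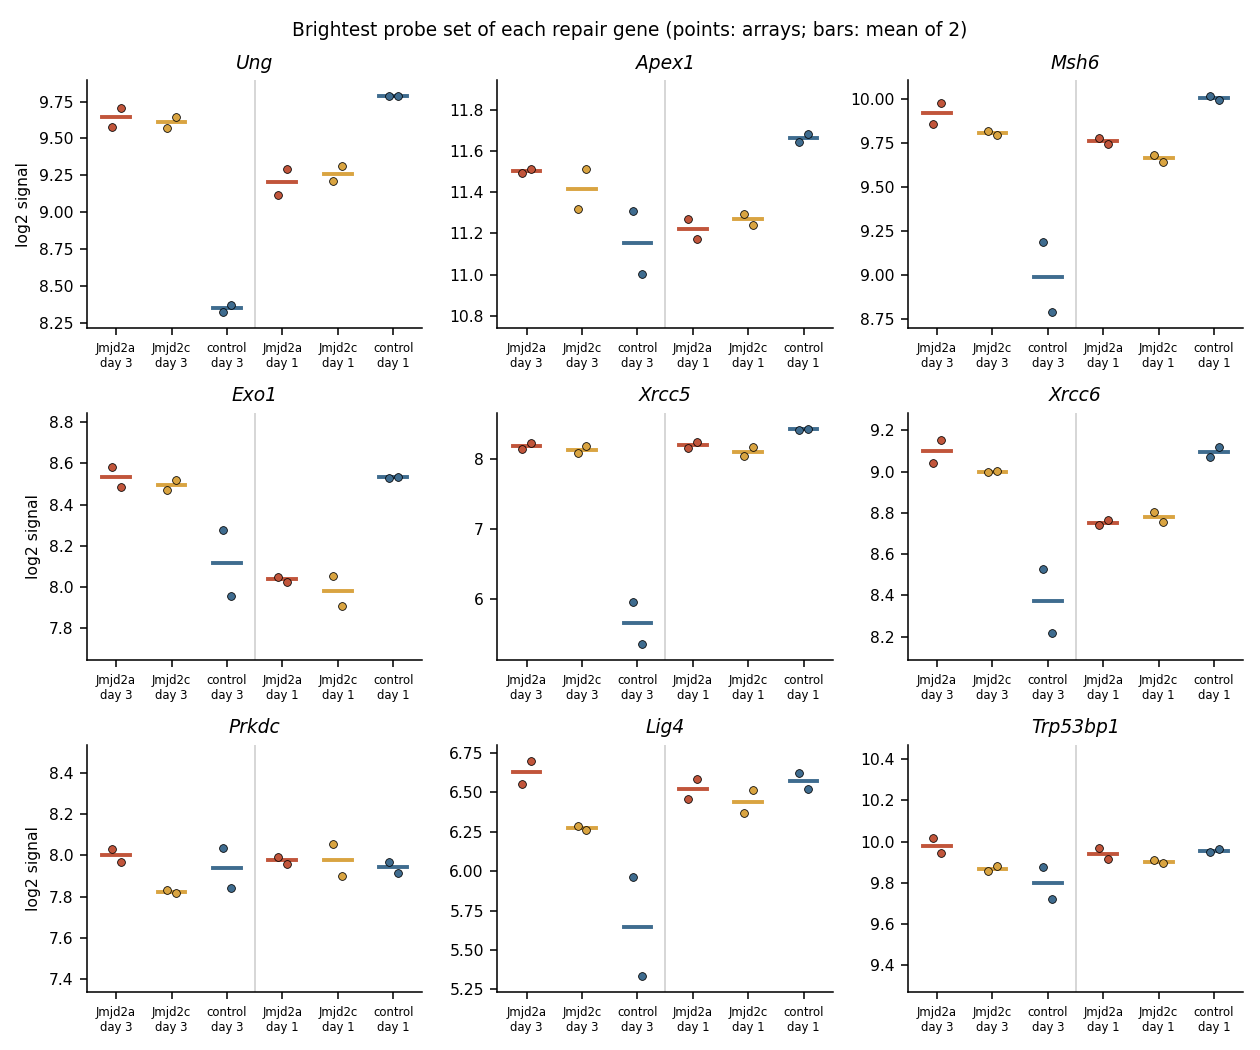
Log2 signal of the brightest probe set of each of the 9 repair genes (vertical axes, each with its own range) in the 6 groups, day 3 left and day 1 right of the grey line; points are arrays and bars the mean of 2. The day 3 controls are the lowest group for 7 of 9 genes, with Xrcc5 at 5.96 and 5.35, while all 12 arrays of Prkdc lie within 0.24 of each other.

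Uracil excision comes first in the pathway. Ung encodes the uracil DNA glycosylase that removes the deaminated base, and it lies at chr5:114130366-114139321 of the mouse assembly GRCm38.p6. At day 3 its signal was 9.58 and 9.71 in the Jmjd2a arrays and 9.57 and 9.65 in the Jmjd2c arrays, against 8.33 and 8.38 in the controls. At day 1 it was 9.12 and 9.30 with the Jmjd2a label and 9.21 and 9.31 with the Jmjd2c label, against 9.78 and 9.78 in the controls. Both labels lay above both controls at day 3 and below both controls at day 1, without overlap. The day 3 difference was 1.29 (SE 0.08, 2.45-fold, adjusted p = 2.1e-06) for Jmjd2a and 1.26 (SE 0.08, 2.39-fold, adjusted p = 3.1e-06) for Jmjd2c. The day 1 difference was -0.58 (adjusted p = 0.0012) for Jmjd2a and -0.52 (adjusted p = 0.0017) for Jmjd2c. All 4 differences stayed past the test without any single array.

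Apex1, at chr14:50924949-50927188, encodes the endonuclease that cuts the backbone at the abasic site Ung leaves. Its probe set 1437715_x_at had signals of 11.49 and 11.51 in the day 3 Jmjd2a arrays and 11.32 and 11.51 in the Jmjd2c arrays, against 11.31 and 11.002 in the controls. The lower Jmjd2c array lay only just above the higher control. At day 1 this probe set read 11.27 and 11.17 for Jmjd2a and 11.29 and 11.24 for Jmjd2c, against 11.64 and 11.68 in the controls. Its day 3 difference was 0.35 (SE 0.09, adjusted p = 0.015) for Jmjd2a and 0.26 (SE 0.09, adjusted p = 0.074) for Jmjd2c. The other probe sets, 1416135_at and 1456079_x_at, passed as higher at day 3 with both labels, at 0.36 and 0.46 for Jmjd2a and 0.38 and 0.40 for Jmjd2c. At day 1 all 3 probe sets passed as lower with both labels, by -0.44, -0.26 and -0.37 for Jmjd2a and -0.39, -0.31 and -0.34 for Jmjd2c in the order named.

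Some Apex1 calls rested on single arrays. The day 3 call of 1437715_x_at for Jmjd2a was lost without control replicate 2 (0.19, adjusted p = 0.098), Jmjd2a replicate 1 (0.36, adjusted p = 0.073) or Jmjd2a replicate 2 (0.34, adjusted p = 0.1), within a range of adjusted p of 0.00022 to 0.1 over its alternatives. The day 1 calls of this probe set were lost without either control array or replicate 2 of the label, with differences of -0.46 to -0.39 for Jmjd2a and -0.41 to -0.37 for Jmjd2c. Those of 1416135_at and 1456079_x_at were lost without either control array too, at -0.28 to -0.25 and -0.39 to -0.36 for Jmjd2a and -0.32 to -0.29 and -0.35 to -0.32 for Jmjd2c. Without Jmjd2a replicate 1 both were lost (-0.25 and -0.36), without Jmjd2a replicate 2 1416135_at (-0.27), and without Jmjd2c replicate 2 both (-0.21 and -0.28). For Jmjd2c its day 3 difference passed without control replicate 1 (0.41, adjusted p = 0.0012). The suffix x in a probe set name marks probes that can also match other transcripts.

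The mismatch branch is represented by Msh6 and Exo1. Msh6, at chr17:87975050-87990892, encodes the subunit that recognises single-base mismatches, uracil opposite guanine among them. Its day 3 signal was 9.86 and 9.98 in the Jmjd2a arrays and 9.82 and 9.80 in the Jmjd2c arrays, against 9.19 and 8.79 in the controls. Day 1 arrays read 9.78 and 9.75 for Jmjd2a and 9.68 and 9.64 for Jmjd2c, against 10.02 and 10.00 in the controls. Neither day showed overlap with the controls, with the labels above them at day 3 and below them at day 1. The day 3 differences were 0.93 (SE 0.10, 1.91-fold, adjusted p = 7.5e-05) for Jmjd2a and 0.82 (SE 0.10, 1.76-fold, adjusted p = 0.00022) for Jmjd2c. The day 1 differences did not pass, at -0.24 (95% interval -0.47 to -0.02, adjusted p = 0.22) for Jmjd2a and -0.34 (95% interval -0.57 to -0.12, adjusted p = 0.056) for Jmjd2c. Both passed without control replicate 2 of day 3 (adjusted p = 0.0096 and 0.00096), which enters them only through the shared spread.

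Exo1, at chr1:175880768-175911396, encodes the exonuclease that resects the strand around the mismatch. Probe set 1418026_at read 8.58 and 8.49 in the day 3 Jmjd2a arrays and 8.47 and 8.52 in the Jmjd2c arrays, against 8.28 and 7.96 in the controls. The day 1 signals were 8.05 and 8.03 for Jmjd2a and 8.05 and 7.91 for Jmjd2c, against 8.53 and 8.54 in the controls. The day 1 labels and the lower day 3 control were the low arrays, and neither label overlapped the controls of its day. At day 3 the difference was 0.42 (SE 0.11, adjusted p = 0.016) for Jmjd2a and 0.38 (SE 0.11, adjusted p = 0.035) for Jmjd2c. At day 1 it was -0.49 (adjusted p = 0.015) for Jmjd2a and -0.55 (adjusted p = 0.0062) for Jmjd2c. Probe set 1418027_at passed at day 1, at -0.69 with each label (adjusted p = 0.0043 and 0.0033), and did not pass at day 3, at 0.23 and 0.06 (adjusted p = 0.2 and 0.83), Jmjd2a first. The dim 1430225_at passed in none of the 4 comparisons.

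The Exo1 calls of 1418026_at were sensitive to single arrays. At day 3 they were lost without control replicate 2 (0.26 for Jmjd2a and 0.22 for Jmjd2c) and without either array of the label (0.37 and 0.47 for Jmjd2a, 0.40 and 0.35 for Jmjd2c). At day 1 the Jmjd2a call was lost without any 1 of the 4 arrays (-0.51 to -0.48), and the Jmjd2c call without either control or Jmjd2c replicate 2 (-0.55 to -0.48). The day 1 calls of 1418027_at were lost without control replicate 1 (-0.56 for Jmjd2a and -0.55 for Jmjd2c).

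**Figure D2:**
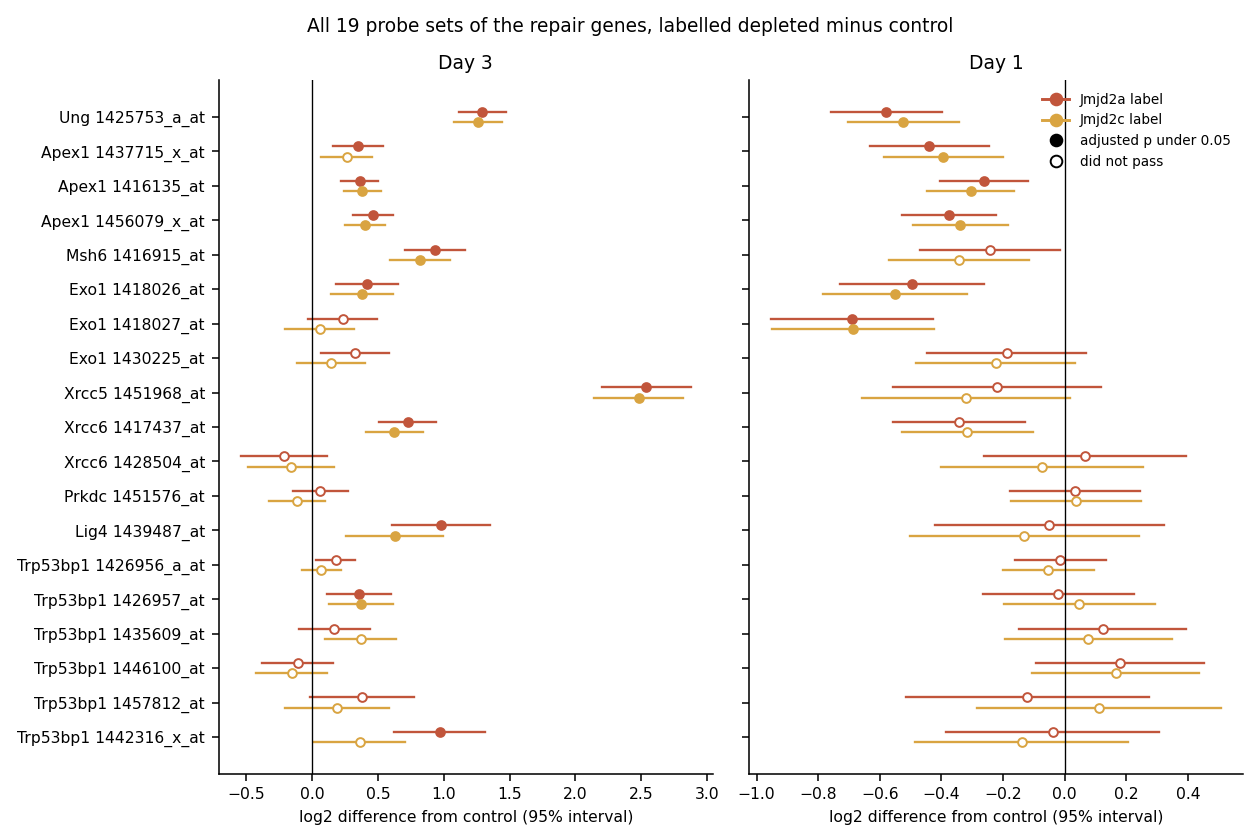
Log2 difference from the control of the same day for all 19 probe sets (rows), day 3 in the left panel and day 1 in the right panel, with different horizontal ranges; lines are 95% intervals and filled points passed the test. Xrcc5 stands farthest out at day 3 (2.54 and 2.48), and at day 1 the passing probe sets are those of Ung, Apex1 and Exo1, all of them lower.

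Trp53bp1 encodes the adaptor that shields broken ends from resection and that B cells need for class switching, and lies at chr2:121194835-121296354. Its probe set of highest mean, 1426956_a_at, read 10.01 and 9.94 in the day 3 Jmjd2a arrays and 9.86 and 9.88 in the Jmjd2c arrays, against 9.88 and 9.72 in the controls. At day 1 the signals were 9.97 and 9.92 for Jmjd2a and 9.91 and 9.90 for Jmjd2c, against 9.95 and 9.96 in the controls. All 12 arrays lay within 0.29 of each other, and the Jmjd2c arrays overlapped the controls at day 3. This probe set did not pass against control, with day 3 differences of 0.18 (95% interval 0.03 to 0.33) for Jmjd2a and 0.07 (95% interval -0.08 to 0.22) for Jmjd2c.

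The 6 probe sets of Trp53bp1 disagreed at day 3. Probe set 1426957_at passed as higher for Jmjd2a (0.36, adjusted p = 0.042) and for Jmjd2c (0.37, adjusted p = 0.046), and both calls were lost without control replicate 2 (0.17 and 0.19) or without either array of the label (0.33 and 0.38 for Jmjd2a, 0.42 and 0.32 for Jmjd2c). The dim 1442316_x_at read 4.87 and 5.05 in the Jmjd2a arrays and 4.29 and 4.42 in the Jmjd2c arrays, against 4.06 and 3.93 in the controls. It passed for Jmjd2a at 0.97 (SE 0.16, adjusted p = 0.0011) and not for Jmjd2c at 0.36 (adjusted p = 0.18). The remaining probe sets, 1435609_at, 1446100_at and 1457812_at, passed with neither label at day 3. At day 1, 0 of 6 passed in limma with either label, and 0 had an unadjusted p under 0.05. Across the 12 arrays their correlation with 1426956_a_at was 0.79 for 1426957_at, 0.82 for 1457812_at and 0.80 for 1442316_x_at, but 0.27 for 1435609_at and -0.17 for 1446100_at. Single control arrays of day 3 also made calls: without replicate 1, 1426956_a_at (0.26) and 1457812_at (0.66) passed for Jmjd2a, and without replicate 2, 1435609_at (0.46) passed for Jmjd2c.

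End joining begins when the ring formed by Ku80 (Xrcc5) and Ku70 (Xrcc6) slides onto a broken end. Xrcc5, at chr1:72307417-72394953, had the largest differences of the 9 genes at day 3. It read 8.15 and 8.24 in the Jmjd2a arrays and 8.09 and 8.19 in the Jmjd2c arrays, against 5.96 and 5.35 in the controls. At day 1 it read 8.17 and 8.25 for Jmjd2a and 8.05 and 8.17 for Jmjd2c, against 8.42 and 8.44 in the controls. The 2 day 3 control arrays were the low ones, more than 2 log2 units below the other 10 arrays. The difference at day 3 was 2.54 (SE 0.16, 5.81-fold, adjusted p = 1.8e-06) for Jmjd2a and 2.48 (SE 0.16, 5.59-fold, adjusted p = 2.5e-06) for Jmjd2c. Without control replicate 2, which was the lower array, it was still 2.23 and 2.18. The day 1 difference did not pass, at -0.22 (95% interval -0.56 to 0.12) for Jmjd2a and -0.32 (95% interval -0.66 to 0.02) for Jmjd2c, of which the Jmjd2c value passed without control replicate 2 of day 3 (adjusted p = 0.0098).

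Xrcc6, the partner subunit at chr15:81987833-82040085, was also higher at day 3, by less. Probe set 1417437_at read 9.04 and 9.15 in the day 3 Jmjd2a arrays and 8.996 and 9.001 in the Jmjd2c arrays, against 8.53 and 8.22 in the controls. Day 1 signals were 8.74 and 8.77 for Jmjd2a and 8.80 and 8.76 for Jmjd2c, against 9.07 and 9.12 in the controls. Neither label overlapped the controls on either day. The day 3 differences were 0.72 (SE 0.10, 1.65-fold, adjusted p = 0.00029) and 0.62 (SE 0.10, 1.54-fold, adjusted p = 0.00096), and the day 1 differences of -0.34 and -0.32 did not pass (adjusted p = 0.056 and 0.062), in each case Jmjd2a before Jmjd2c. Without control replicate 2 of day 3, the day 1 differences passed (adjusted p = 0.0024 and 0.0029). The other, dim probe set 1428504_at passed in none of the comparisons, though without control replicate 1 it was lower for Jmjd2a at day 3 (-0.43, adjusted p = 0.04), and ran against the brighter one, with a correlation of -0.49 over 12 arrays. The signal of Xrcc5 minus that of Xrcc6 1417437_at, whose zero has no meaning, lay between -0.91 and -0.81 in the labelled day 3 arrays, against -2.57 and -2.86 in the day 3 controls. In the day 1 arrays it lay between -0.76 and -0.52. The signal of Xrcc5 lay farther below its own level elsewhere in the day 3 controls than that of Xrcc6 did, a difference between the partners that was not tested.

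The promoter windows of the Ku pair and of Msh6 are printed as examples. These 3 genes were lowest in the day 3 controls by different amounts, as 7 of the 9 genes were. The letters are RefSeq sequence of GRCm38.p6, 250 bases before the transcript start that the promoter table uses, for Xrcc5 at chr1:72307171-72307420, Xrcc6 at chr15:82016119-82016368 and Msh6 at chr17:87974800-87975049, all on the plus strand. The Xrcc6 window lies inside the gene interval given above, and the end of the Xrcc5 window just reaches into its own. Capitals mark matches on either strand to the motifs searched: the GC box GGGCGG, the CCAAT box CCAAT, the E-box CACGTG, the E2F site as TTTCCCGC, TTTCGCGC, TTTGCCGC or TTTGGCGC, the cell cycle homology region TTTGAA, the TATA box TATAAA and the palindromic NRF1 site.
Xrcc5: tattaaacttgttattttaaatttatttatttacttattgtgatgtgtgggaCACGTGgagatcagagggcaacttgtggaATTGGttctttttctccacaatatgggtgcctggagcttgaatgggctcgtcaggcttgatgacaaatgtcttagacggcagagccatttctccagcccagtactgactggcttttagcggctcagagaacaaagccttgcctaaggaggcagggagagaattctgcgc
Xrcc6: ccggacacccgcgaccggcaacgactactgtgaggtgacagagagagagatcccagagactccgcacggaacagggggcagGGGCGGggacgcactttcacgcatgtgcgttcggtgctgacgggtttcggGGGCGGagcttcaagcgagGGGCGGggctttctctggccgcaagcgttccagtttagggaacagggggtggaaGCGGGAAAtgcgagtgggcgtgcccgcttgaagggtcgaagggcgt
Msh6: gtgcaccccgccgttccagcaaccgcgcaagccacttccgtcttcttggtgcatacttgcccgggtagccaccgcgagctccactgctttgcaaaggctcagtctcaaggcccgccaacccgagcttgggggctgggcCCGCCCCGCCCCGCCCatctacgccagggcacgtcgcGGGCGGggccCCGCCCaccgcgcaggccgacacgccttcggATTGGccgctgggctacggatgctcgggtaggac

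The Xrcc5 window was the poorest of the 3 in G and C, at 44.8% against 65.2% for Xrcc6 and 70.8% for Msh6, where the median of all 32851 windows was 52.4%. It held 1 E-box and 1 CCAAT box and no GC box, which 6.02%, 33.8% and 32.7% of all windows hold at least once. Xrcc6 had 3 GC boxes and 1 E2F match, a motif found in 1.86% of windows, and Msh6 had 5 GC boxes, 3 of which overlap by a base each, and 1 CCAAT box. None of the 3 held a cell cycle homology region, a TATA box or an NRF1 match, found in 16%, 12.4% and 0.782% of windows. Promoter sequences were matched for 7 of the 9 genes. Those of Ung, Apex1, Lig4 and Trp53bp1 are not printed, and none of them held an E2F match. A match is a description of letters and not a bound site.

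Prkdc, at chr16:15637444-15842239, encodes the kinase DNA-PKcs that Ku recruits to the end. It passed in none of the 11 comparisons. Its signal was 8.03 and 7.97 in the day 3 Jmjd2a arrays and 7.83 and 7.82 in the Jmjd2c arrays, against 8.03 and 7.84 in the controls. Day 1 arrays read 7.99 and 7.96 for Jmjd2a and 8.05 and 7.90 for Jmjd2c, against 7.97 and 7.91 in the controls. Apart from the Jmjd2c arrays of day 3, which lay just below both controls, the labels overlapped the controls. The 95% intervals of the day 3 differences were -0.15 to 0.27 for Jmjd2a and -0.33 to 0.10 for Jmjd2c, so differences as large as those of Xrcc6 lay outside them.

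Lig4, at chr8:9970020-9977680, encodes the ligase that seals the joined ends. It read 6.55 and 6.70 in the day 3 Jmjd2a arrays and 6.29 and 6.26 in the Jmjd2c arrays, against 5.96 and 5.33 in the controls. At day 1 it read 6.46 and 6.59 for Jmjd2a and 6.37 and 6.51 for Jmjd2c, against 6.62 and 6.52 in the controls. The day 3 controls were the low arrays and differed from each other by more than any other replicate pair of this gene. The day 3 difference passed for Jmjd2a at 0.98 (SE 0.17, 1.97-fold, adjusted p = 0.0016) and for Jmjd2c at 0.63 (SE 0.17, 1.54-fold, adjusted p = 0.028). The Jmjd2c call was lost without control replicate 2 (0.31, adjusted p = 0.1) and without either Jmjd2c array (0.61 and 0.64, adjusted p = 0.14 each), within a range of adjusted p of 0.00011 to 0.22 over its alternatives. For Jmjd2a the difference without control replicate 2 was 0.67 and passed.

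At day 1 the repair genes that passed ran in the other direction. With each label 3 of 9 genes passed as lower, Ung, Apex1 and Exo1, and 0 passed as higher, with 0 higher at an unadjusted p under 0.05. Over all genes 4.6% passed as lower with the Jmjd2a label and 7.35% with the Jmjd2c label, and 5.72% and 7.57% as higher. By probe sets 6 of 19 passed as lower with each label, where 3.25% and 5.69% of all probe sets did. The median difference of the 9 genes was -0.24 for Jmjd2a and -0.32 for Jmjd2c, where the medians over all genes were -0.04 and -0.03. Without control replicate 1 of day 1, 1 of 19 passed for each label, and without control replicate 2, 2 for each. Without either Jmjd2a array 3 passed for Jmjd2a, and without Jmjd2c replicate 1 or 2, 6 or 2 passed for Jmjd2c. Without control replicate 2 of day 3, which enters only through the shared spread, 8 passed for Jmjd2a and 9 for Jmjd2c, those of Msh6 and Xrcc6 among them.

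Between the days the control arrays differed for most of the genes. From the brightest probe sets, 7 of 9 genes passed as lower in the day 3 controls than in the day 1 controls, where 17.2% of all genes did, and 12 of 19 probe sets, where 15.4% did. Xrcc5 differed by -2.77 (SE 0.16, adjusted p = 3.2e-07), Ung by -1.43 (SE 0.08, adjusted p = 3.5e-07) and Msh6 by -1.02 (SE 0.10, adjusted p = 2.4e-05). Lig4 (-0.92), Xrcc6 (-0.72), Apex1 (-0.51) and Exo1 (-0.42) followed. The Exo1 call was lost without control replicate 2 of day 3 (-0.25) and without day 1 control replicate 1 (-0.42) or 2 (-0.41). Prkdc differed by 0.00 (95% interval -0.21 to 0.21) and the brightest Trp53bp1 probe set, 1426956_a_at, by -0.16 (adjusted p = 0.12). Other Trp53bp1 probe sets passed as lower in limma: 1426957_at (-0.42, adjusted p = 0.017) and 1442316_x_at (-0.89, adjusted p = 0.0015). Of its probe sets 5 were lower at an unadjusted p under 0.05, while 1446100_at differed by 0.11. The call of 1426957_at was lost without control replicate 2 of day 3 (-0.24) and without day 1 control replicate 1 (-0.42) or 2 (-0.43).

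Within the depleted labels, day 3 set against day 1 gave few changes. Ung was higher at day 3 by 0.44 (adjusted p = 0.0086) with the Jmjd2a label and by 0.35 (adjusted p = 0.022) with the Jmjd2c label. Exo1 was higher by 0.50 (adjusted p = 0.018) and 0.51 (adjusted p = 0.011). These were 2 of 9 genes with each label, where 3.41% and 4.75% of all genes passed as higher, and 3 of 19 probe sets, where 2.26% and 3.27% did. The third probe set was Apex1 1456079_x_at for Jmjd2a (0.29) and Apex1 1416135_at for Jmjd2c (0.28). Leaving out 1 of the 4 arrays of a label left 0 or 1 of 19 for Jmjd2a and 0 to 2 for Jmjd2c, and leaving out control replicate 2 of day 3 gave 7 and 5. The third probe set was lost without any 1 of the 4 Jmjd2a arrays (0.24 to 0.35), and without Jmjd2c day 1 replicate 2 or either day 3 array (0.18 to 0.28). The Ung and Exo1 calls did not hold without single arrays: for Ung the values were 0.35 and 0.37 without Jmjd2a day 1 replicate 1 or day 3 replicate 2, and 0.30 to 0.40 without any 1 of the 4 Jmjd2c arrays. For Exo1 they were 0.45 to 0.55 without any 1 of the 4 Jmjd2a arrays, and 0.44 to 0.54 without Jmjd2c day 1 replicate 2 or either day 3 array.

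**Figure D3:**
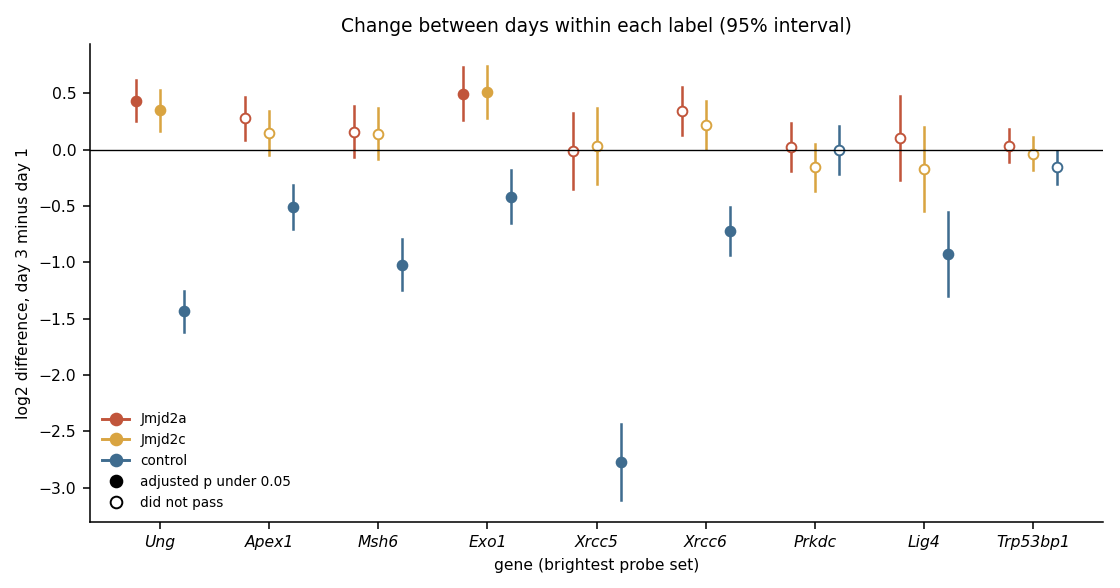
Log2 difference of day 3 minus day 1 (vertical axis) for the brightest probe set of each gene, separately for the Jmjd2a, Jmjd2c and control labels; lines are 95% intervals and filled points passed the test. The filled control points, for 7 genes, all lie below 0, down to -2.77 for Xrcc5, while the filled points of the depleted labels are Ung and Exo1 only, above 0.

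The difference from control changed between the days for most of these genes. Tested as an interaction, the day 3 difference minus the day 1 difference passed as positive for 7 of 9 genes with each label, where 14.5% (Jmjd2a) and 13.1% (Jmjd2c) of all genes did, and for 11 and 10 of 19 probe sets, where 12% and 10.7% did. It was 2.76 and 2.80 for Xrcc5 and 1.87 and 1.78 for Ung. For Prkdc it was 0.03 and -0.15, and did not pass. The Lig4 value for Jmjd2a, 1.03, was 0.96 without Jmjd2a day 3 replicate 2 and then did not pass, and the one for Jmjd2c, 0.76 (adjusted p = 0.049), was lost without any of 7 arrays (0.44 to 0.83). When the day 3 labels were set against the day 1 controls, 0 of 19 probe sets passed for either label in limma. At an unadjusted p under 0.05 there were 1 (Jmjd2a) and 3 (Jmjd2c). Of all probe sets tested, only 75 (Jmjd2a) and 72 (Jmjd2c) passed there, so 0 of 19 does not set these genes apart. In that comparison Xrcc5 differed by -0.23 for Jmjd2a and -0.29 for Jmjd2c.

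The labels were also set against each other. Of 19 probe sets, 0 passed between Jmjd2a and Jmjd2c on either day in limma, where 0% of all probe sets did, and 1 at day 3 and 0 at day 1 had an unadjusted p under 0.05. The 1 was Trp53bp1 1442316_x_at, at 0.61 (95% interval 0.26 to 0.96, adjusted p = 0.85). Lig4 was 0.35 higher with the Jmjd2a label at day 3 (95% interval -0.02 to 0.72), and Xrcc5 0.05 (95% interval -0.28 to 0.39). These intervals leave room for differences of such size in either gene.

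**Figure D4:**
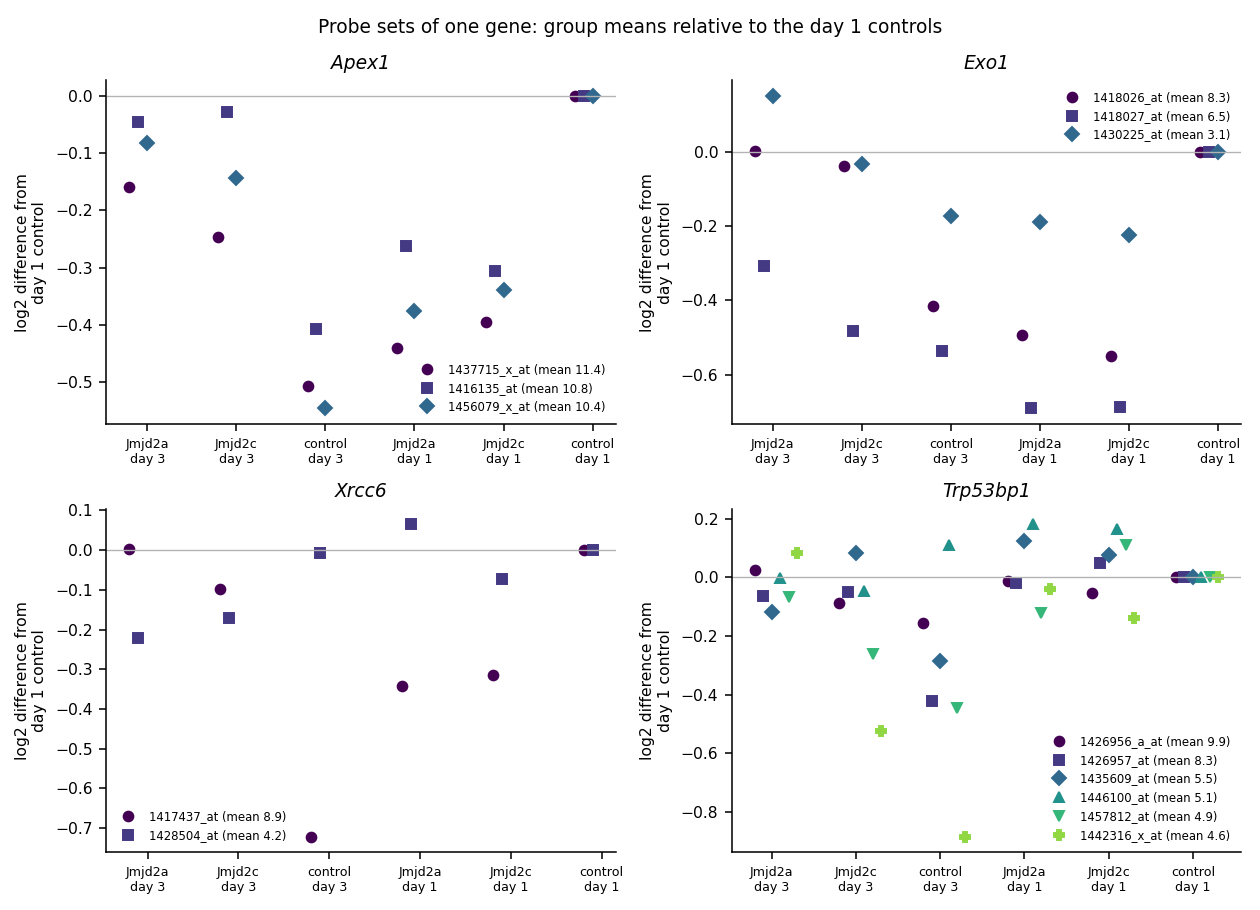
Group means of every probe set relative to its own day 1 control mean (vertical axis, log2) for the 4 genes with several probe sets; symbols mark probe sets and legends give their mean log2 signal. The 3 Apex1 probe sets are all lowest in the day 3 controls, while Xrcc6 1428504_at and Trp53bp1 1446100_at correlate with the brightest one of their gene at -0.49 and -0.17.

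The probe sets of Apex1 and of Exo1 correlated positively over the 12 arrays. Those of Exo1 still differed at day 3, where 1418026_at passed as higher than control with both labels and 1418027_at with neither. For Apex1 the correlation with 1437715_x_at over 12 arrays was 0.77 for 1416135_at and 0.93 for 1456079_x_at, and for Exo1 that with 1418026_at was 0.76 for 1418027_at and 0.65 for 1430225_at. Among the genes, the highest correlations over the 12 arrays were 0.96 between Msh6 and Xrcc5, 0.95 between Msh6 and Xrcc6 and 0.95 between Ung and Xrcc6. Those of Prkdc ran from -0.12 with Ung to 0.58 with Trp53bp1. These values share arrays and groups, and the day 3 controls weigh on most of them. The genes with the most similar pattern, by Pearson correlation over 12 arrays, were Usp6nl (0.996), Pigr and Spred2 for Xrcc5, and Mrps27 (0.996), Mcrip2 and Gemin5 for Xrcc6. For Ung they were Pes1 (0.995), Dusp12 and Pold2, and for Msh6 Nol11 (0.993), Rpf2 and Ndufaf4. Exo1 was nearest to Rnaseh2b (0.982), Mcm10 and 1110065P20Rik, Lig4 to Tmem201 (0.987), Yipf6 and Gpatch3, and Apex1 to Tfpt (0.962), 1110038F14Rik and Cnot11. Trp53bp1 was nearest to Bzw1 (0.963), Tmem161a and Asxl2, and Prkdc to Ccnt2 (0.892), Vps13b and Ccnt1.

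Other genes of the same pathways were counted from named lists, and each count is to be read against the share of all genes: 16% (Jmjd2a) and 12.1% (Jmjd2c) higher and 9.04% and 7.21% lower at day 3, and 5.72% and 7.57% higher and 4.6% and 7.35% lower at day 1. Of 7 further base excision genes, 2 were higher and 1 lower at day 3 with each label, close to those shares in so short a list, and 0 passed at day 1, where 0 (Jmjd2a) and 1 (Jmjd2c) had an unadjusted p under 0.05. Lig3, the ligase of single-strand break repair, was higher by 0.95 and 0.81, and Apex2, a second abasic site endonuclease, by 0.90 and 0.78. Parp1, which senses strand breaks, was lower by -0.29 and -0.27. In each pair the Jmjd2a value comes before the Jmjd2c value.

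Of 11 further genes of mismatch repair and gap filling, 5 (Jmjd2a) and 4 (Jmjd2c) were higher at day 3 and 0 lower, with list medians of 0.30 and 0.27. Pcna, the sliding clamp, differed by 0.32 and 0.30, its loader subunit Rfc1 by 0.45 and 0.41, and the mismatch protein Msh3 by 0.48 and 0.40. At day 1 0 were higher and 3 (Jmjd2a) and 6 (Jmjd2c) lower, among them the flap endonuclease Fen1 (-0.34 and -0.31) and the ligase Lig1 (-0.32 and -0.27).

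The remaining end-joining genes gave few calls. Of 7 measured, among them Xrcc4, Nhej1 and Paxx, only the polymerase Poll was higher at day 3 with the Jmjd2a label (0.41, adjusted p = 0.039), and 0 passed in limma with the Jmjd2c label at day 3, with either label at day 1 or between days in the controls. At an unadjusted p under 0.05 there were 0 with the Jmjd2c label at day 3, 2 (Jmjd2a) and 5 (Jmjd2c) at day 1 and 0 between days. The list was not tested against the 9 genes.

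Genes of the response to broken ends were higher at day 3 in 9 (Jmjd2a) and 8 (Jmjd2c) of 13 cases, with 1 lower. Mad2l2, a shieldin subunit that acts downstream of Trp53bp1, differed by 1.08 and 0.95, Rif1, which the Trp53bp1 protein recruits, by 0.80 and 0.64, and Nbn of the end-sensing complex by 0.69 and 0.61. The 1 lower gene, named after its values were seen, was the histone variant H2ax (-0.37 and -0.51). At day 1 2 of 13 were lower with each label, Mre11a (-0.41 and -0.48) and Nbn (-0.31 and -0.50). Of 7 homologous recombination genes, 3 (Jmjd2a) and 2 (Jmjd2c) were higher at day 3, with the nuclease Dna2 at 0.55 and 0.52 and Xrcc3 at 0.83 and 0.65. Rad52 was lower with the Jmjd2c label (-0.47), and at day 1 4 of 7 were lower with each label, among them Rad54l (-0.63 and -0.65).

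Cell cycle genes were measured beside the repair genes. Of 14 replication genes, 10 were higher with each label at day 3, and 2 (Jmjd2a) and 3 (Jmjd2c) lower; the licensing factor Cdt1 differed by 0.91 and 0.93 and the helicase subunit Mcm2 by 1.04 and 0.99. At day 1 11 of 14 were lower with each label. Of 13 mitosis genes, all 13 were lower at day 3 with each label, with medians of -0.96 and -0.97, and 12 at day 1. In the controls 13 of 13 mitosis genes were higher at day 3 than at day 1 (median 1.26), where 11.2% of all genes were. Of the 14 replication genes 11 were lower, where 17.2% of all genes were, and 3 higher. The part of cell cycle state in the repair genes' differences was not tested.

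**Figure D5:**
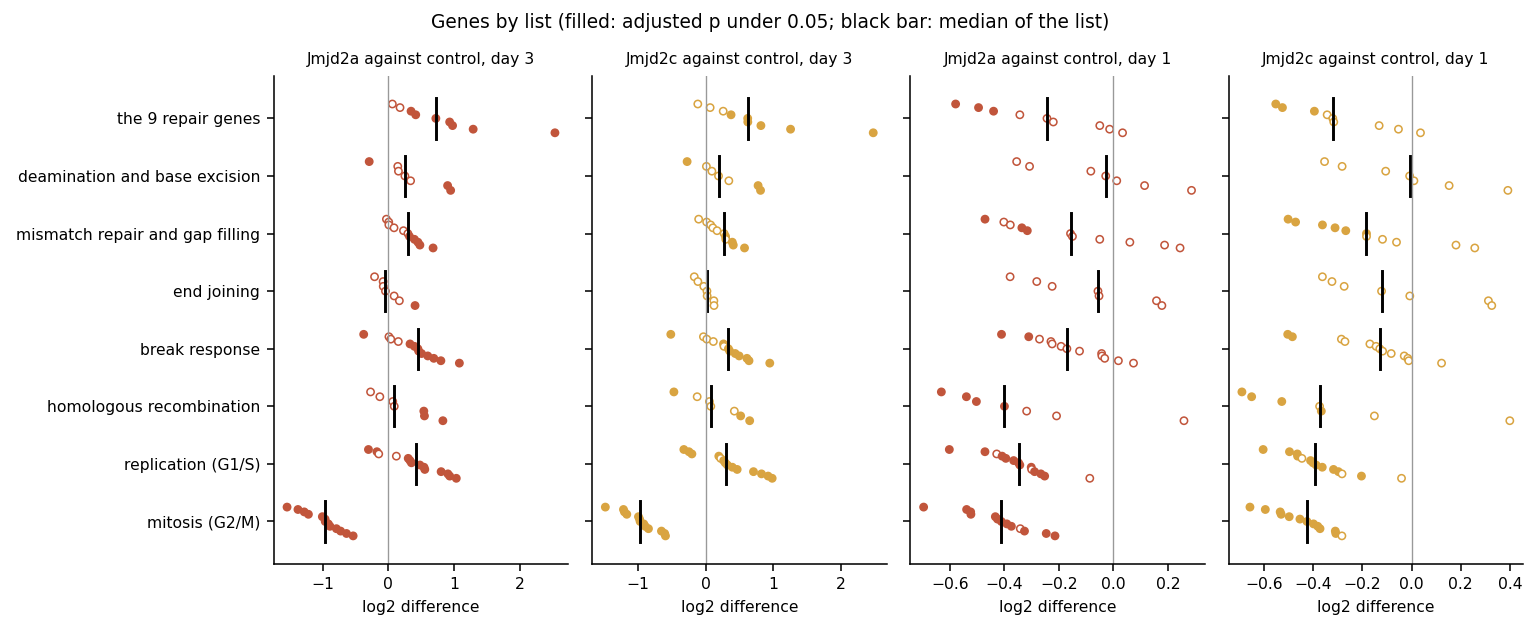
Log2 difference from control for each gene of the 9 repair genes and of 7 further lists (rows), in 4 comparisons (panels, each with its own range); filled points passed the test and black bars are list medians. At day 3 the 9 genes have medians of 0.72 and 0.62. The 7 other end-joining genes lie from -0.21 to 0.41 (Jmjd2a, Poll the highest and filled) and from -0.17 to 0.12 (Jmjd2c). The mitosis genes all lie below 0 at day 3.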

How the data were processed

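The values are log2 signals of 45101 Affymetrix probe sets in 12 samples, as deposited by the authors in 1 table; the software and the normalization behind them are not given in the sources used here, and nothing was done to them before the tests. Per the labels' protocols, total RNA was extracted with TRIzol and biotin-labelled. After 64 control probe sets were left out, 45037 were fitted in limma 3.58.1 (R 4.3.3) as 6 group means, with an intensity trend in the prior variance, and 11 contrasts were each adjusted by Benjamini and Hochberg. The fit had 6 residual degrees of freedom and a prior of 5.85. With 2 arrays a group, the number of arrays limits the precision. The fit was tested on simulated data. Probe sets were named from the platform annotation: 34945 named 1 gene, 932 several and 9160 none, and those naming several or none were not used for a gene. Levels per gene come from its probe set of highest mean. Positions and promoters are RefSeq entries of GRCm38.p6.

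The 9 genes, the pathway and marker lists and some alternatives were chosen with earlier results of these data known. All probe sets of the 9 genes are given. From each further list at most 3 genes of smallest p per comparison are named, besides H2ax, which was named after its values were seen, and as similar patterns the 3 genes of highest correlation among 11184 candidates. Alternatives were quantile normalization, median centring, leaving out dim probe sets, no intensity trend, weighting arrays by quality, a block for the replicate number, fits limited to the arrays compared, each array left out, and day 1 in place of day 3 controls. The differences between replicates 1 and 2 correlated at -0.11 to 0.39 over 15 pairs of groups, with 1 pair over 0.1. That pair was the Jmjd2a and Jmjd2c arrays of day 1. In both, neutrophil markers were higher in replicate 2 (9.16 and 10.01) than in replicate 1 (6.02 and 6.01). Replicate numbers may thus pair these arrays, so results of the 2 labels at day 1 may not be independent. The cause was not tested. Python 3.11.15 and matplotlib 3.10.9 served for promoters and plots.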

Additional observations from a re-analysis of the deposited data

Results flagged for a closer look

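The difference from control was not the same at day 3 and day 1 for 11 probe sets with the Jmjd2a label and 10 with the Jmjd2c label, by the interaction in limma (day 3 difference minus day 1 difference, log2, adjusted over all probe sets). For the Jmjd2a label these were Xrcc5 (2.76, adjusted p = 9.1e-06), Ung (1.87, adjusted p = 3.1e-06), Msh6 (1.18), Xrcc6 1417437_at (1.07), Lig4 (1.03), Trp53bp1 1442316_x_at (1.01), Exo1 1418027_at and 1418026_at (0.92 and 0.91), and Apex1 1456079_x_at, 1437715_x_at and 1416135_at (0.84, 0.79 and 0.62). For the Jmjd2c label they were Xrcc5 (2.80, adjusted p = 7.1e-06), Ung (1.78, adjusted p = 2.5e-06), Msh6 (1.16), Xrcc6 1417437_at (0.94), Exo1 1418026_at and 1418027_at (0.93 and 0.74), Lig4 (0.76, adjusted p = 0.049), and Apex1 1456079_x_at, 1416135_at and 1437715_x_at (0.74, 0.68 and 0.66). Both labels share the control arrays. The call of Exo1 1418027_at for Jmjd2c was lost without day 1 control replicate 1 (0.61).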

How the results depend on the processing

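Over 209 differences, those of 19 probe sets in 11 comparisons, 2274 alternative values kept their direction and side of the test, 119 lost the call, 59 gained one, 80 changed sign without a call on either side and 16 called ones reversed. All 16 reversals came from setting day 1 controls in place of day 3 controls. There 0 of 19 probe sets passed in limma with either label (1 for Jmjd2a and 3 for Jmjd2c at an unadjusted p under 0.05). Of all probe sets tested, only 75 (Jmjd2a) and 72 (Jmjd2c) passed with day 1 controls, so 0 of 19 does not set these genes apart. For Jmjd2a the values were then -0.14 for Ung, -0.16, -0.046 and -0.082 for Apex1 1437715_x_at, 1416135_at and 1456079_x_at, -0.084 for Msh6, -0.23 for Xrcc5 and -0.065 for Trp53bp1 1426957_at. For Jmjd2c they were -0.18 for Ung, -0.028 and -0.14 for Apex1 1416135_at and 1456079_x_at, -0.20 for Msh6, -0.038 for Exo1 1418026_at, -0.29 for Xrcc5, -0.10 for Xrcc6 1417437_at, -0.30 for Lig4 and -0.051 for Trp53bp1 1426957_at. The cause was not tested.

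With only the arrays of a contrast, which have fewer degrees of freedom, 7 (Jmjd2a) and 5 (Jmjd2c) probe sets passed at day 3 against control, 6 between days with the Jmjd2a label, and 1 between Jmjd2a and Jmjd2c at day 3, Trp53bp1 1442316_x_at. Without the intensity trend 3 passed for Jmjd2c at day 1 and 1 between days with that label. Between days with the Jmjd2a label, 5 passed with dim probe sets left out, and array weights gave 7 for Jmjd2a and 5 for Jmjd2c. The cause was not tested for these last settings.

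Leaving out 1 array, the counts against control ran over 8 to 14 (Jmjd2a) and 6 to 10 (Jmjd2c) at day 3 and over 1 to 8 and 1 to 9 at day 1. Of the 14, 1 was lower (Xrcc6 1428504_at). Between days they ran over 0 to 7 with the Jmjd2a label, 0 to 5 with the Jmjd2c label and 9 to 14 in the controls. The interaction counts ran over 10 to 14 and 8 to 11, and 0 passed between Jmjd2a and Jmjd2c. With the replicate number as a block the counts were 11 and 9 at day 3, 6 and 6 at day 1, 12 in the controls, 3 and 3 between days, 0 and 0 between labels and 11 and 9 for the interaction. The 1 call lost in these counts was Lig4 in the Jmjd2c interaction (0.76, adjusted p = 0.056). No scaling moved the median of all probe sets by over 0.1. Under quantile normalization 191 of the 209 differences stayed the same, 10 changed sign without a call, 7 gained a call and 1 lost it. Median centring gave 201, 5, 2 and 1. Replicate 2 of the day 3 controls had an interquartile range of signal of 3.08, against 3.38 to 3.63 in the other arrays.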
